A study of Caenorhabditis elegans with 9 samples.

Results

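The basic leucine zipper (bZIP) transcription factors zip-2, zip-3, zip-4, zip-5, zip-8, zip-10, zip-11, cebp-1, cebp-2 and fos-1 of Caenorhabditis elegans were followed across 2 doses of sodium arsenite. They are a list of 10 genes, taken by name with all of their probesets. Of these, 9 were measured, through 13 of the 20766 probesets that are assigned to 1 gene, and they stand among 17118 genes tested. The gene cebp-2 had no probeset assigned to it alone and is not analysed here.

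The worms were wild-type N2 animals, grown in the liquid C. elegans habitation medium (CeHM) after synchronization of bleached eggs. One group received 0.03% (w/v) sodium arsenite (high dose), a second received 0.003% (w/v) (low dose), both for 6 h at 22 °C, and a control group received none. Each group had 3 arrays, labelled as biological replicates 1 to 3. The methods state 3 separate RNA extractions per condition. Whether these came from separate cultures is not stated in the sources used here, and each p-value rests on the spread between these samples. The labels give the stage as L3, whereas the study's methods and results give L1 and L4. RNA of whole animals was hybridized to the Affymetrix C. elegans array, and fewer cells of a type and less RNA per cell cannot be told apart in such samples. All levels below are the deposited signals on the log2 scale, and a difference of 1 on this scale is a 2 fold change.

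A bZIP protein contacts DNA through a region rich in basic residues and pairs with another bZIP protein through a leucine zipper, as a homodimer or as a heterodimer. Which partner is present therefore helps to set which sites are bound. The C/EBP group, to which cebp-1 and cebp-2 belong, and the Fos and Jun group (AP-1), to which fos-1 belongs, are found from worms to mammals. In C. elegans, members of the class act in responses to infection, cold, blocked translation, mitochondrial damage and injured axons.

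Array medians lay between 8.42 and 8.52, and pairs of arrays correlated at 0.940 to 0.952 within groups and at 0.911 to 0.948 between groups, across genes. All 15 marker genes of tissue and stage were above the level that bounds the dimmest 25% of genes (6.26) in every group. Summed on the linear scale and returned to log2, the 15 markers lay at 15.69 to 15.89 in control, 15.43 to 15.61 at the low dose and 15.30 to 15.39 at the high dose. The adult markers col-19 (a cuticle collagen), vit-2 and vit-6 (yolk proteins) were present in these samples, although each stage stated for them is larval. Their summed level was 13.83 to 14.08 in control, 12.19 to 12.54 at the low dose and 13.02 to 13.39 at the high dose. Whether adults were among the animals was not tested. All 3 were called lower at the low dose, where 1.55% of all genes were called and 0.508% were called lower. At the high dose 6 of the 15 were called lower and 0 higher, beside 20.0% of all genes. Of these dpy-7, a hypodermal collagen, fell by 1.47 (SE 0.21, limma adjusted p = 0.00259) and kept the call whichever array was left out. The other 5 (myo-3, pgl-1, glp-1, col-19 and vit-6) each lost it without some arrays, and 1 to 3 of the 6 were still called without control 1, control 2, control 3, high dose 1 or high dose 2. The part of these shifts in the results on bZIP genes was not tested.

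The high dose was compared with control to find which of the 9 genes responded at 0.03%. The genes zip-10, fos-1, zip-4 and zip-2 rose, by 3.49, 2.23, 2.09 and 1.497 fold, and zip-11 fell, by 1.72 fold. The other 4 (zip-3, zip-5, zip-8 and cebp-1) did not pass the test. A gene was called where limma gave an adjusted p no greater than 0.05 with a change of 1.2 fold or more, and 5 of 9 (55.6%) met this, beside 20.0% of all genes tested. With the dimmer 50% of genes left out and the rest fitted and adjusted anew, 3839 were called. With all 17118 genes in the fit, 3418 were called. How much of this came from brightness and how much from the new fit was not tested. Of the 9 listed genes 6 remained in the smaller fit, of which zip-10, fos-1, zip-4 and zip-2 were called. The 20.0% is a share of bright and dim genes together and not one for genes of like brightness, here or beside the lists below. The members and lists were also chosen with earlier results of these data known, so their shares carry no test of an excess over all genes. The shares of all genes called were 9.0% higher and 11% lower. The median difference of the 9 genes was 0.15, and that of all genes was -0.05, while the median of the absolute differences was 0.68 against 0.40. The 3 high dose arrays lay wholly above control for 4 genes and wholly below for 2 (zip-11 and zip-3), and 38.4% of all genes had no overlap in either direction (16.7% above and 21.7% below). The call held for these 5 genes when any 1 array was left out.

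**Figure D1:**
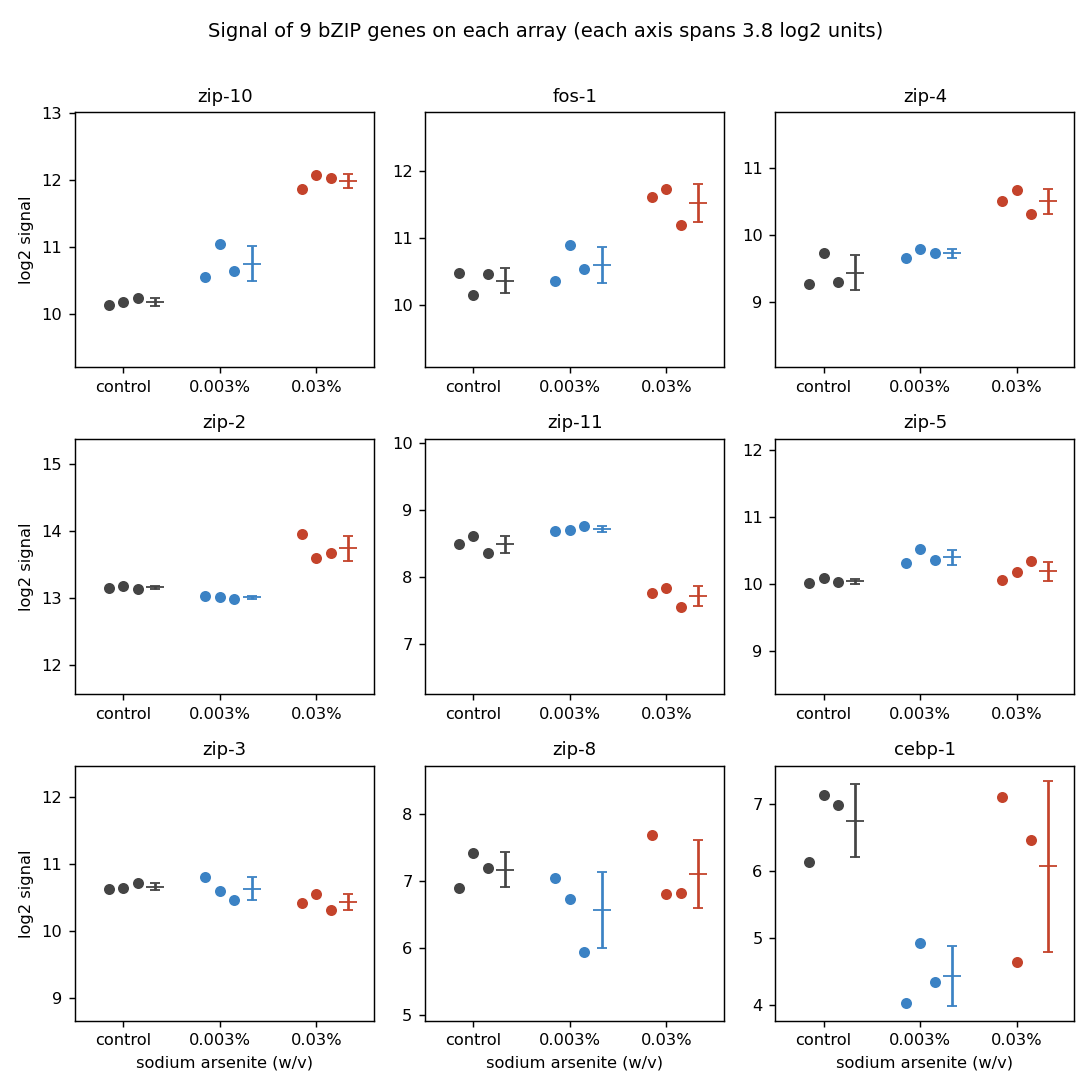
Log2 signal (vertical axis) of the 9 measured bZIP genes on each of the 9 arrays, grouped by control, low dose (0.003%) and high dose (0.03%). Each dot is an array, and the dash with its bar is the mean ± SD (n = 3). The high dose arrays of zip-10 sit at 11.87 to 12.07, above all of the others, while those of zip-11 sit at 7.55 to 7.83, below all of the others.

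The gene zip-10 showed the largest high dose difference of the 9. Its product is known from cold shock, where it promotes death of the animals together with the genes it turns on. Its probeset (179204_s_at) read 10.13, 10.18 and 10.25 in control, 10.56, 11.05 and 10.64 at the low dose and 11.87, 12.07 and 12.03 at the high dose. The 3 groups did not overlap, and the order was control, low dose, high dose. The means were 10.19 ± 0.06, 10.75 ± 0.26 and 11.99 ± 0.10 (SD, n = 3 each). High dose exposure raised it by 1.80 (SE 0.15, 95% confidence interval 1.46 to 2.15, limma adjusted p = 1.74e-04), and the size of this difference exceeded that of 94.7% of genes. The low dose difference was 0.57 (SE 0.15, interval 0.22 to 0.91), larger than its own spread, but it did not pass after adjustment over all genes (limma adjusted p = 0.167). Between the doses the level differed by 1.24 (SE 0.15, limma adjusted p = 0.00144).

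Genes placed with zip-10 in cold-induced death were a list of 3, all measured. Of these, 1 was called at the high dose (33.3%, beside 20.0% of all genes), and it fell. This was asp-17, an aspartyl protease that ZIP-10 is known to turn on in the cold. It read 11.28, 11.24 and 10.96 in control, 10.46, 10.60 and 10.73 at the low dose and 10.54, 10.37 and 10.71 at the high dose. Both exposed groups were thus below control without overlap. The high dose difference was -0.62 (SE 0.15, limma adjusted p = 0.0227), and leaving out 1 of 4 arrays (control 1, control 2, high dose 1 or high dose 2) ended this call, with an adjusted p of up to 0.0794. The low dose difference of -0.57 did not pass (limma adjusted p = 0.160). The cysteine protease gene cpr-3 (0.22) and isy-1 (-0.24), a known repressor of zip-10, did not pass the test at the high dose.

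Over the 9 arrays, the genes whose values followed those of zip-10 most closely, among 7747 candidates, were rcd-1 (Pearson r = 0.993), clc-19 (0.992) and sqst-1 (0.992). Of these sqst-1 encodes the p62-like autophagy receptor. Their high dose differences were 2.02, 1.46 and 2.52. These correlations describe 9 arrays in 3 groups and carry no test.

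The gene fos-1 encodes the worm Fos protein, which pairs with JUN-1 to form AP-1 and is needed in the anchor cell for its invasion of the vulval epithelium. Its brighter probeset (191088_at) read 10.48, 10.15 and 10.47 in control, 10.36, 10.90 and 10.54 at the low dose and 11.62, 11.74 and 11.20 at the high dose. The high dose arrays lay above all of the others, and the low dose arrays overlapped with control. High dose exposure raised the level by 1.16 (SE 0.20, interval 0.68 to 1.63, limma adjusted p = 0.00625), whereas the low dose difference was 0.23 (SE 0.20, limma adjusted p = 0.740). The second probeset (175322_at) read 9.92, 10.06 and 9.91 in control, 9.91, 10.36 and 9.91 at the low dose and 11.18, 11.62 and 11.22 at the high dose. It gave the same direction, with a high dose difference of 1.37 (SE 0.18, limma adjusted p = 0.00150). The difference between doses was 0.92 (SE 0.20, limma adjusted p = 0.0194) on the brighter probeset and 1.28 (SE 0.18, adjusted p = 0.00268) on the second. On the brighter probeset this call between doses was lost without low dose 1, low dose 3, high dose 1 or high dose 2 (adjusted p up to 0.0675) and with only the groups compared in the fit (adjusted p = 0.0538).

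Among 8 measured genes that encode a partner of FOS-1, kinases of the JNK-like KGB-1 cascade or known anchor cell targets, 5 were called higher at the high dose and 0 lower (62.5%, beside 20.0% of all genes), with a median difference of 0.79. The count was 3 without control 1 or high dose 2. The partner jun-1 read 10.001, 9.91 and 10.03 in control, 10.15, 10.36 and 10.33 at the low dose and 11.12, 11.20 and 11.18 at the high dose. Its high dose level was well clear of the other groups, with a difference of 1.19 (SE 0.10, limma adjusted p = 2.25e-04) and 0.88 (SE 0.10, adjusted p = 0.00127) above the low dose. A second probeset of jun-1 rose by 0.80 (SE 0.12, limma adjusted p = 0.00366).

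The 3 kinases of the cascade, in which MLK-1 acts on MEK-1 and MEK-1 acts on KGB-1, all rose at the high dose. The kinase gene mek-1 read 10.77, 10.98 and 10.97 in control, 11.13, 11.20 and 10.97 at the low dose and 12.13, 12.48 and 12.99 at the high dose. Its difference was 1.63 (SE 0.21, limma adjusted p = 0.00159). The level of kgb-1, whose product can phosphorylate FOS-1, went from 10.09 ± 0.26 to 11.08 ± 0.30 (SD, n = 3), a rise of 0.98 (SE 0.19, adjusted p = 0.0109). That of mlk-1 rose by 0.75 (SE 0.19, adjusted p = 0.0290), but leaving out control 1, control 3, high dose 2 or high dose 3 ended this call (adjusted p up to 0.0949).

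Of the anchor cell targets, zmp-1, a matrix metalloprotease, rose by 0.83 (SE 0.18, limma adjusted p = 0.0150). This call was lost without control 1, control 2, high dose 1 or high dose 2 (adjusted p up to 0.0547). The cadherin gene cdh-3 read 8.99, 8.88 and 9.16 in control, 9.21, 9.58 and 9.41 at the low dose and 8.65, 8.62 and 8.73 at the high dose. It lay above control at one dose and below it at the other, and the difference between doses, -0.74 (SE 0.13, adjusted p = 0.00838), was the one that passed. The high dose differences of him-4 (-0.10) and egl-43 (-1.21) had SEs of 0.74 and 0.90 and did not pass.

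The genes most like fos-1 over the 9 arrays were tsct-1 (Pearson r = 0.990), rpn-3 (0.985), a subunit of the proteasome, and ndrr-1 (0.980). Their high dose differences were 0.73, 0.73 and 0.42.

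**Figure D2:**
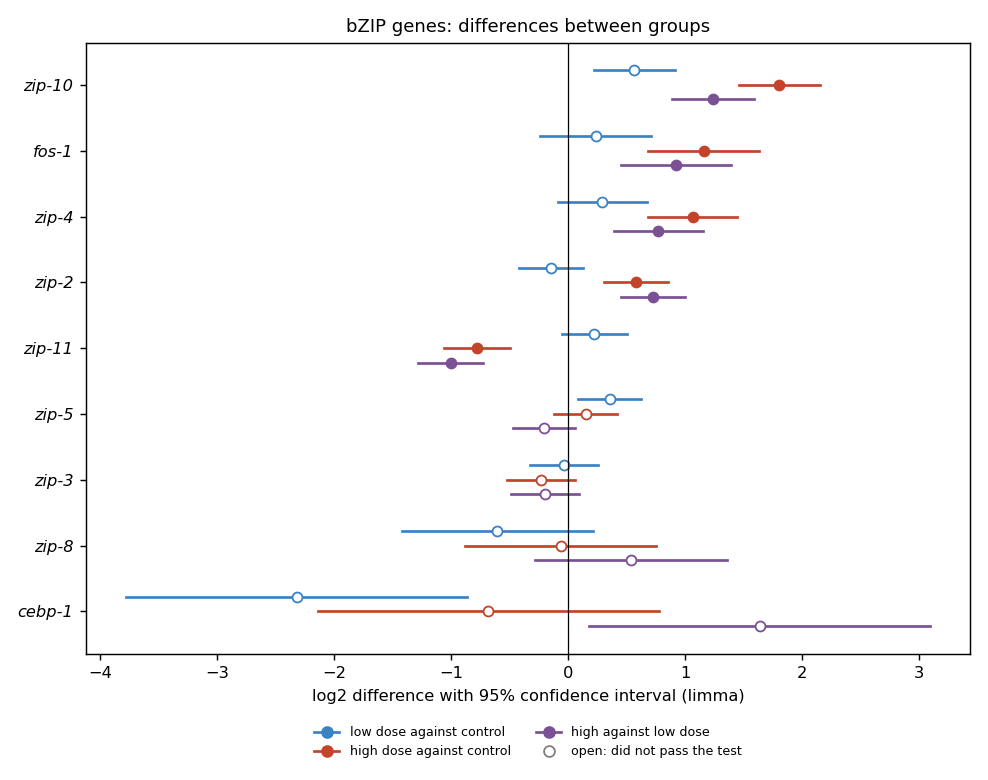
Log2 differences of the 9 bZIP genes (horizontal axis) in the comparisons of each dose with control and of the doses with each other. Bars are 95% confidence intervals from limma and filled points passed the test, which were 5 of 9 genes at the high dose, 0 of 9 at the low dose and 5 of 9 between the doses.

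The gene zip-2 encodes a factor that responds when translation is blocked, as by a bacterial toxin, and acts there with CEBP-2. Its probeset (181230_at) read 13.16, 13.19 and 13.14 in control, 13.03, 13.02 and 12.99 at the low dose and 13.95, 13.60 and 13.68 at the high dose. All 3 groups were separate, with the low dose lowest. The high dose difference was 0.58 (SE 0.12, interval 0.31 to 0.86, limma adjusted p = 0.0117), a size that a threshold of 1.5 fold would not pass. The low dose difference was -0.15 (SE 0.12, interval -0.42 to 0.13) and did not pass (limma adjusted p = 0.719). The difference between doses was 0.73 (SE 0.12, limma adjusted p = 0.00520).

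The infection response genes irg-1 to irg-7 were all measured, and irg-1 and irg-2 are the best known reporters of ZIP-2. At the high dose 4 of 7 were called higher and 0 lower (57.1%, beside 20.0% of all genes). At the low dose 2 of 7 were called higher (28.6%), where 1.55% of all genes were called, and 1 of 7 without low dose 2 or low dose 3. The list's median difference was 1.04 for the high dose and 0.79 for the low dose. The gene irg-1 read 7.47, 6.88 and 7.43 in control, 8.36, 8.63 and 8.62 at the low dose and 8.98, 9.23 and 8.98 at the high dose. It rose in steps without overlap, by 1.28 at the low dose (SE 0.19, limma adjusted p = 0.0184) and by 1.80 at the high dose (SE 0.19, adjusted p = 5.16e-04), and the step between the doses, 0.52, did not pass (adjusted p = 0.107). The low dose call was lost without low dose 2 or low dose 3 (adjusted p up to 0.0766).

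The gene irg-2 read 6.31, 7.13 and 7.33 in control, 7.72, 7.50 and 7.90 at the low dose and 9.64, 9.81 and 10.21 at the high dose. Its high dose arrays stood apart from the rest, by 2.97 over control (SE 0.29, limma adjusted p = 3.89e-04) and 2.18 over the low dose (SE 0.29, adjusted p = 0.00215). The gene irg-5 rose by 1.39 at the high dose (SE 0.21, adjusted p = 0.00340). The gene irg-6 ran the other way between the doses.

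It read 5.91, 6.73 and 6.41 in control, 9.16, 8.70 and 8.56 at the low dose and 7.64, 7.61 and 6.92 at the high dose. Its low dose rise of 2.46 (SE 0.29, limma adjusted p = 0.00728) exceeded the high dose rise of 1.04 (SE 0.29, adjusted p = 0.0433), by 1.41 (SE 0.29, adjusted p = 0.0150). The high dose call of irg-6 was lost when any of 6 arrays was left out (control 1 or 3, low dose 2 or 3, high dose 1 or 2), with an adjusted p of up to 0.131. The gene irg-3 was also lower under 0.03% than under 0.003%, with a difference of -0.76 (SE 0.17, adjusted p = 0.0206), which was lost without low dose 2, low dose 3 or high dose 3 (adjusted p up to 0.0685). Against control, irg-3 differed by 0.88 at the low dose (adjusted p = 0.0599) and by 0.12 at the high dose, neither of which passed. The genes irg-4 (0.25) and irg-7 (-0.38) did not pass at the high dose, where the arrays of irg-7 lay wholly below control.

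The gene zip-4 encodes a factor placed with ZIP-2 and the C/EBP factors in the ethanol and stress response element network. Its brighter probeset (175396_s_at) read 9.28, 9.74 and 9.30 in control, 9.67, 9.80 and 9.73 at the low dose and 10.52, 10.68 and 10.32 at the high dose. The high dose arrays were above the rest. The high dose difference was 1.06 (SE 0.16, interval 0.68 to 1.44, limma adjusted p = 0.00339), the low dose difference 0.29 (SE 0.16, adjusted p = 0.558) and the difference between doses 0.77 (SE 0.16, adjusted p = 0.0163). The last of these calls was lost without low dose 1, low dose 3, high dose 1 or high dose 2 (adjusted p up to 0.0585). The second probeset (173891_s_at) read 9.17, 9.09 and 9.08 in control, 8.42, 9.14 and 9.52 at the low dose and 9.77, 10.07 and 9.32 at the high dose. There the high dose arrays were also above control, but the difference, 0.61 (SE 0.30, interval -0.09 to 1.30), did not pass (limma adjusted p = 0.221), so that the call of zip-4 rests on the brighter probeset.

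The gene cebp-1 encodes a C/EBP factor that is needed for regrowth of injured axons and whose mRNA is controlled by the DLK-1 kinase pathway. Its probeset (183972_at) was dim, with a mean of 5.76 over the arrays. It read 6.14, 7.14 and 6.98 in control, 4.04, 4.93 and 4.34 at the low dose and 7.11, 4.64 and 6.47 at the high dose. The low dose arrays lay below all control arrays, while the high dose arrays spread over both ranges. The low dose difference was the largest of the 9 genes in that comparison, -2.32 (SE 0.62, interval -3.78 to -0.86), and did not pass after adjustment (limma adjusted p = 0.178). The high dose difference was -0.68 (SE 0.62, interval -2.14 to 0.78, adjusted p = 0.528). The test results of cebp-1 turned on 1 array, high dose 2, which is in neither group of the low dose comparison. The low dose difference of -2.32 was the same without it, and its test changed through the spread in the fit of all 3 groups. Without high dose 2, which holds the low value of 4.64, the low dose difference passed (adjusted p = 0.0443), the difference between doses went from 1.64 (adjusted p = 0.130) to 2.35 (adjusted p = 0.0146), and the high dose difference was 0.03.

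Of the 7 genes of the DLK-1 pathway, all measured, 3 were called higher at the high dose and 0 lower (42.9%, beside 20.0% of all genes). They are dlk-1, mkk-4 and mak-2, kinases at the top, in the middle and at the end of the cascade. The gene mak-2 read 9.76, 9.39 and 9.73 in control, 9.91, 10.19 and 9.92 at the low dose and 11.22, 11.85 and 11.45 at the high dose, a rise of 1.88 (SE 0.19, limma adjusted p = 5.13e-04). The level of dlk-1 rose by 1.11 (SE 0.17, adjusted p = 0.00348), from 10.92 ± 0.14 to 12.04 ± 0.14 (SD, n = 3). That of mkk-4 rose by 0.67 (SE 0.11, adjusted p = 0.00502). The p38-like kinase gene pmk-3 had a difference of 0.69 and missed the threshold (adjusted p = 0.0523). The ubiquitin ligase genes rpm-1 (0.43) and fsn-1 (0.04), whose products limit DLK-1, and uev-3 (0.48) did not pass. At the low dose 0 of the 7 were called, with 1 at an unadjusted p under 0.05 in limma, beside 11.7% of all genes.

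The gene zip-3 encodes a known repressor of the mitochondrial unfolded protein response that ATFS-1 drives. Its brighter probeset (179658_at) read 10.62, 10.64 and 10.72 in control, 10.81, 10.60 and 10.47 at the low dose and 10.42, 10.55 and 10.32 at the high dose. The high dose arrays lay just below control, and the difference of -0.23 (interval -0.52 to 0.06) did not pass (limma adjusted p = 0.261). The interval of the low dose difference was -0.32 to 0.26. The second probeset (179163_at) was dimmer and more variable. It read 7.33, 7.37 and 6.75 in control, 7.74, 7.74 and 7.68 at the low dose and 7.71, 5.03 and 6.76 at the high dose, and no difference passed.

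Of 7 genes of the mitochondrial response, 2 were called higher at the high dose and 0 lower (28.6%, against 20.0% of all genes), and 1 without high dose 2. The gene atfs-1, itself a bZIP factor, rose by 0.98 (SE 0.21, limma adjusted p = 0.0147), a call that was lost without high dose 2 (adjusted p = 0.0528). The mitochondrial chaperone gene hsp-6 read 13.08, 13.21 and 13.09 in control, 13.37, 13.41 and 13.21 at the low dose and 14.00, 14.08 and 14.06 at the high dose. Its rise of 0.92 (SE 0.10, adjusted p = 7.48e-04) placed the high dose arrays above all of the others, and it was 1.90 with the probesets of a gene averaged. The second chaperone gene, hsp-60, had a difference of -0.25 and did not pass (adjusted p = 0.221), nor did dnj-10 (-0.29), ubl-5 (0.27), dve-1 (0.43) and timm-23 (0.39).

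The gene zip-11 was the 1 member of the list that fell. Its probeset (184700_at) read 8.50, 8.62 and 8.37 in control, 8.69, 8.70 and 8.76 at the low dose and 7.76, 7.83 and 7.55 at the high dose. The low dose arrays were all above control and the high dose arrays all below it. The high dose difference was -0.78 (SE 0.12, interval -1.06 to -0.50, limma adjusted p = 0.00348). The low dose difference of 0.22 (SE 0.12, interval -0.05 to 0.50) did not pass (adjusted p = 0.538). The doses differed by -1.003 (SE 0.12, limma adjusted p = 0.00140), or 2.00 fold.

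The gene zip-5 (193844_at) read 10.01, 10.08 and 10.02 in control, 10.31, 10.51 and 10.35 at the low dose and 10.05, 10.17 and 10.33 at the high dose. Its low dose arrays were above control without overlap, by 0.35 (SE 0.11, interval 0.09 to 0.62), and this did not pass after adjustment (limma adjusted p = 0.271). The high dose difference was 0.15 (interval -0.12 to 0.42, adjusted p = 0.443).

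The gene zip-8 was dim and showed no called difference. Its brighter probeset (171733_x_at, whose suffix marks probes that may also bind other transcripts) read 6.89, 7.41 and 7.19 in control, 7.03, 6.72 and 5.93 at the low dose and 7.68, 6.81 and 6.81 at the high dose. All groups overlapped. The intervals were wide, from -0.88 to 0.75 at the high dose and from -1.42 to 0.22 at the low dose, so a change of 1.2 fold in either direction could not be seen at this signal. The second probeset (187591_at) ranged from 3.34 to 6.82 without separating the groups.

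**Figure D3:**
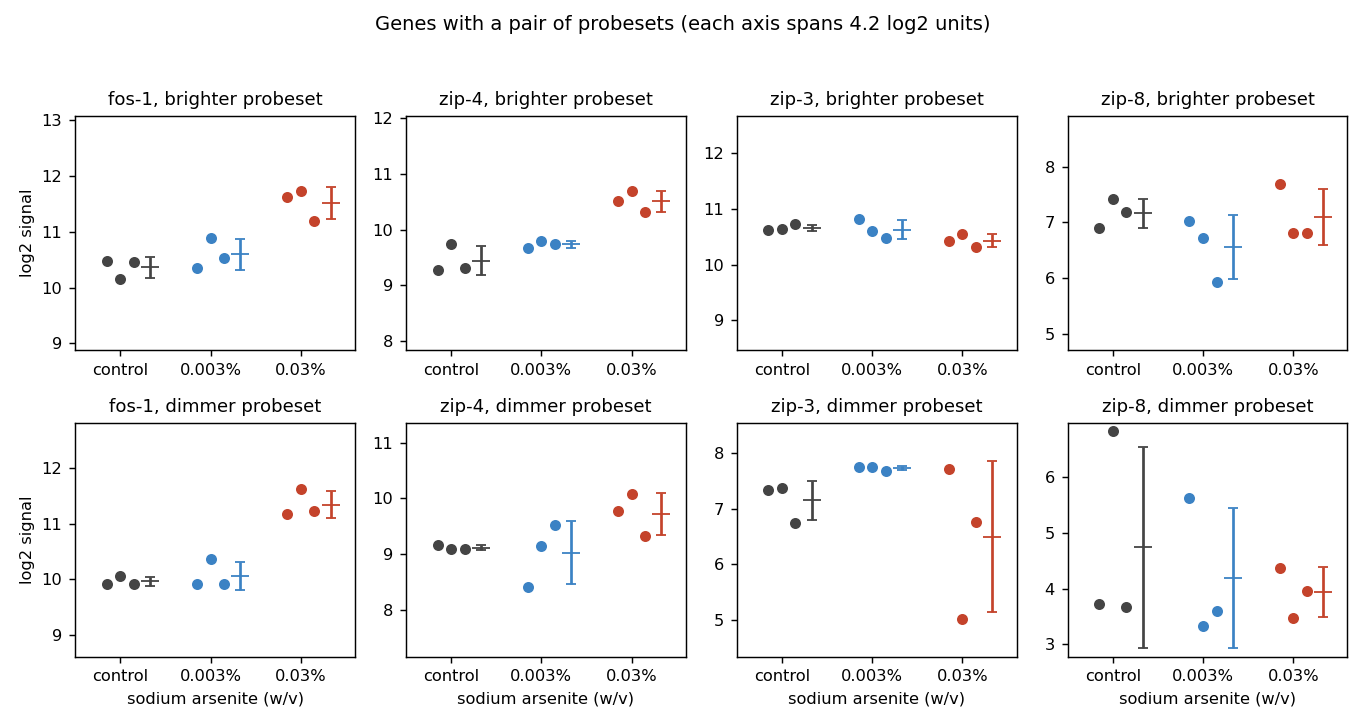
Log2 signal (vertical axis) on each array for both probesets of fos-1, zip-4, zip-3 and zip-8. Each dot is an array, and the dash with its bar is the mean ± SD (n = 3). Both fos-1 probesets have their high dose arrays above control, with differences of 1.16 and 1.37, while for zip-4 the difference is 1.06 on one probeset and 0.61 on the other.

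The low dose was compared with control to ask whether the 9 genes already differed at 0.003%. By limma 0 of 9 were called, beside 1.55% of all genes (1.05% higher and 0.508% lower), and 3 (zip-10, zip-5 and cebp-1) had an unadjusted p under 0.05, beside 11.7% of all genes. The methods' analysis of variance without moderation also called 0. The arrays lay wholly above control for 3 genes (zip-10, zip-5 and zip-11) and wholly below for 2 (zip-2 and cebp-1), where 18.2% of all genes had no overlap in either direction (8.62% above and 9.59% below). The median difference was 0.22, against -0.01 for all genes. The call depended on the setting for 2 genes. Without high dose 2, cebp-1 was called lower, and zip-10 was called higher (0.57) with the dimmer 50% of genes left out (limma adjusted p = 0.0272) and with a variance trend and robust estimation (adjusted p = 0.0288).

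The doses were compared directly, to ask which genes were higher at 0.03% than at 0.003%. By limma 5 of 9 were called, beside 16.8% of all genes (7.34% higher and 9.49% lower). The genes zip-10 (1.24), fos-1 (0.92), zip-4 (0.77) and zip-2 (0.73) were higher and zip-11 (-1.003) was lower at the high dose. For the same 5 genes the arrays of the doses did not overlap, as for 34.0% of all genes (15.8% above and 18.2% below). These 5 are the genes named at the high dose against control, a comparison that shares the high dose arrays. Without low dose 1, low dose 3 or high dose 1 the count was 3, since fos-1 and zip-4 lost the call. Without high dose 2 the same 2 genes lost the call and cebp-1 gained it, which left 4.

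The other bZIP genes of the worm were set beside the 9. Of 21 named, 20 were measured, and the name atf-5 matched no measured gene. Whether atf-5 is an older name of atf-4, which was measured, was not checked. At the high dose 8 were called higher and 1 lower (45.0%, against 20.0% of all genes), with a median difference of 0.44. Those called higher include jun-1 and atfs-1, which were also counted above among the fos-1 partners and the mitochondrial response genes. Of the 20, 15 were in the brighter 50% of all genes. A fit of that 50% of the 17118 genes alone called 3839 at the high dose. Whether the 45.0% exceeds the share for genes of like brightness was not tested. At the low dose 0 were called by limma, with 3 of the 20 at an unadjusted p under 0.05, beside 11.7% of all genes. High against low dose, 6 were higher and 1 lower (35.0%, against 16.8% of all genes), and 4 in all were called without high dose 1.

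Of the called genes, on the probeset with the highest mean, zip-9 had the largest high dose difference. It read 8.28, 7.92 and 8.21 in control, 8.44, 8.78 and 8.86 at the low dose and 9.98, 9.84 and 9.90 at the high dose. The 3 groups were in the order of dose without overlap, as with zip-10. Its rise at the high dose was 1.77 (SE 0.15, limma adjusted p = 2.25e-04), and the low dose difference of 0.56 did not pass (adjusted p = 0.186).

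The gene atf-4, whose product acts in the integrated stress response, read 12.22, 12.39 and 12.49 in control, 12.57, 13.01 and 12.52 at the low dose and 13.51, 13.64 and 13.52 at the high dose. It rose by 1.19 (SE 0.16, limma adjusted p = 0.00162). The genes xbp-1 (0.63, SE 0.12, adjusted p = 0.00841), of the unfolded protein response of the endoplasmic reticulum, and crh-1 (0.63, SE 0.12, adjusted p = 0.0102), the worm CREB, rose less. The endoplasmic reticulum stress gene atf-6 differed by 0.58 and did not pass (adjusted p = 0.0788). The rise of crh-1 was not called when the probesets of a gene were averaged (0.42, adjusted p = 0.232).

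The gene skn-1 encodes the factor best known for the oxidative stress response. It read 10.80, 11.36 and 11.74 in control, 11.29, 11.76 and 11.26 at the low dose and 12.08, 12.19 and 12.25 at the high dose. Its control arrays were widely spread, and the rise of 0.87 (SE 0.25, limma adjusted p = 0.0473) lost the call when any of 7 arrays was left out, all but control 3 and low dose 2 (adjusted p up to 0.122). A second probeset of skn-1 rose by 1.08 (SE 0.18, adjusted p = 0.00492), while the remaining probeset differed by 0.44 (SE 0.19), with overlapping arrays, and did not pass (adjusted p = 0.169).

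The p38 target atf-7, a regulator of immune genes, rose by 0.65 (SE 0.15, limma adjusted p = 0.0209), a call lost without control 2, control 3, high dose 1 or high dose 2 (adjusted p up to 0.0726). A second probeset of atf-7 rose by 0.88 (SE 0.12, adjusted p = 0.00244). The gene zip-12 fell by 0.75 (SE 0.19, adjusted p = 0.0311) and was, with zip-11, the other bZIP gene called lower. This call was lost without any 1 of the 3 control arrays, high dose 1 or high dose 3 (adjusted p up to 0.0953).

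**Figure D4:**
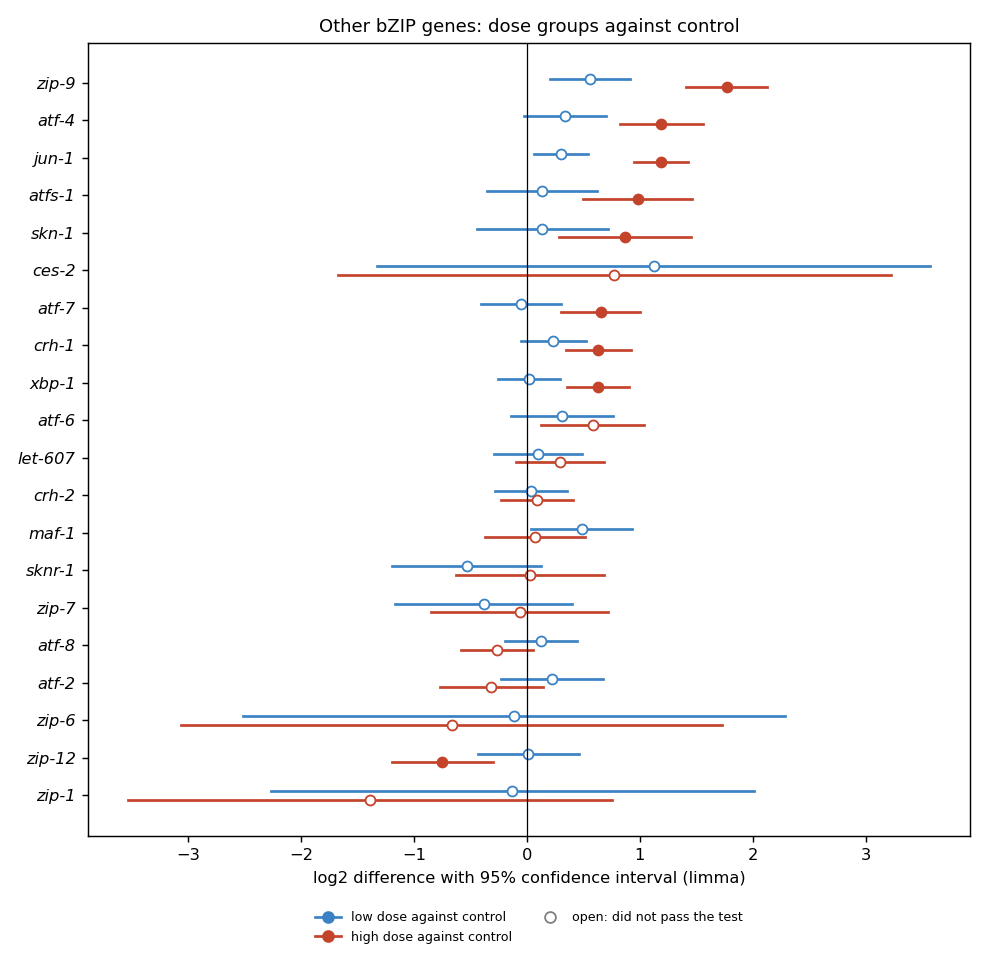
Low dose minus control and high dose minus control on the log2 scale (horizontal axis) for the 20 other measured bZIP genes. Bars are 95% confidence intervals from limma and filled points passed the test. At the high dose zip-9 lies farthest to the right at 1.77, and zip-12 is the filled point on the left at -0.75.

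**Figure D5:**
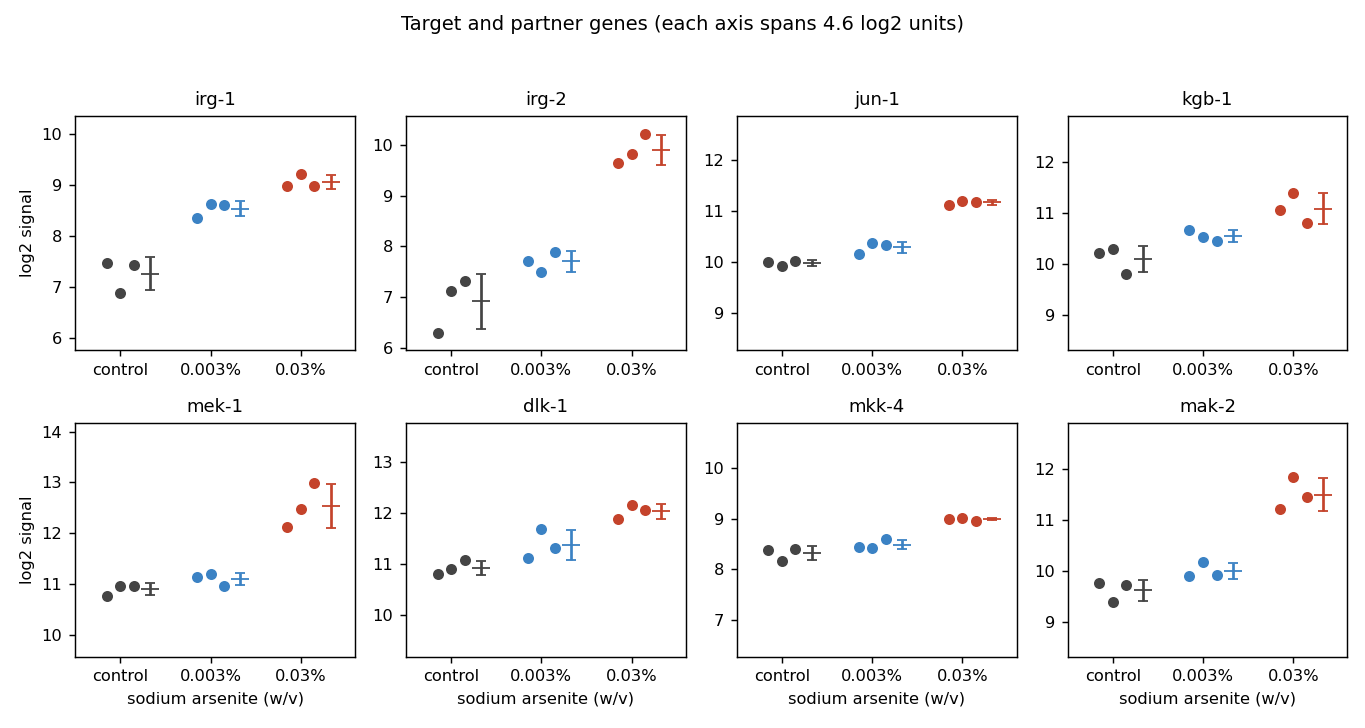
Log2 signal (vertical axis) on each array for known partners, kinases and targets of the bZIP factors, in control, low dose and high dose. Each dot is an array, and the dash with its bar is the mean ± SD (n = 3). The high dose arrays of jun-1 lie at 11.12 to 11.20, above its control arrays at 9.91 to 10.03.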

How the data were processed

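RNA of 3 control, 3 low dose and 3 high dose samples was hybridized to 9 Affymetrix arrays. The authors deposited 1 value per probeset and array on the log2 scale. The methods name RMA, whereas the submitters' processing notes name MAS5 and Partek 6.4, and which of these made the values is not settled. No scaling was added, and depth has no meaning here beyond the number of arrays.

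Of 22625 probesets, 77 controls, 895 with no gene and 887 with several genes were left out. Names were updated through the RefSeq gene table of WBcel235, used for names alone, by gene identifier for 20701 probesets and by symbol for 65. For a gene with several probesets the one with the highest mean was used, as in the methods, and each probeset of the bZIP genes was also fitted. The groups were compared with limma 3.58.1 in R 4.3.3 (lmFit, eBayes, 6 residual and 1.45 prior degrees of freedom, no covariate), with Benjamini-Hochberg adjustment over 17118 genes. The script was tested on simulated data. Python 3.11.15 with matplotlib 3.10.9 was used for the plots.

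The members and gene lists were chosen with earlier results of these data known. All members were named, with the list genes that passed the test or define the list, and the 3 genes most correlated with the 2 members of largest high dose difference, among the brighter 75% of genes with a gene-class symbol. Marker lists covered intestine, muscle, pharynx, neurons, hypodermis, germ line, adult stage and sperm. The files give no genome build, so no coordinates are printed. Promoter and protein sequences are not used here. Alternatives covered normalization, filters on dim genes, thresholds, probeset choice, the samples fitted, a replicate block and each array left out. The dimmer probeset of a member was an alternative chosen after seeing the data.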

Additional observations from a re-analysis of the deposited data

Results flagged for a closer look

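The genes zip-2 and zip-11 had differences of opposite sign at the 2 doses, with a difference between the doses that passed the test. For zip-2 all low dose arrays lay below control and all high dose arrays above it, and the high dose exceeded the low dose by 0.73 on the log2 scale (limma adjusted p = 0.00520). For zip-11 all low dose arrays lay above control and all high dose arrays below it, and the high minus low dose difference was -1.003 (limma adjusted p = 0.00140). In both genes the low dose difference by itself did not pass the test.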

How the results depend on the processing

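At the high dose the 9 listed genes gave 5 calls whichever array was left out, and 0 to 1 at the low dose and 3 to 5 between the doses. At the low dose, 1 was called with the dimmer 50% of genes left out and with the variance trend and robust estimation. Of 176 values of single genes under the alternatives in each comparison, 171, 171 and 165 kept direction and side of the threshold at the high dose, at the low dose and between doses. With a 1.5 fold threshold zip-2 (0.58) was not called at the high dose.

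Some signs turned, all in differences that were not called. For zip-3 at the low dose the difference was 0.27 with probesets averaged, 0.57 on the dimmer probeset, and -0.12 to 0.047 with 1 array left out (above 0 without low dose 3). For zip-8 at the high dose it ran from -0.36 to 0.082 with 1 array left out (above 0 without control 2, high dose 2 or high dose 3), and for cebp-1 from -1.19995 to 0.034 (above 0 without high dose 2). On the dimmer probeset zip-4 at the low dose (-0.088) and zip-8 between doses (-0.26) turned. The causes were not tested.

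Counts of list genes moved by over 1.5 times in these settings. Leaving out the dimmer 50% of genes left 15 other bZIP, 7 mitochondrial response, 3 infection response, 3 cold death pathway and 5 fos-1 partner genes. At the high dose 4 mitochondrial response genes were then called, and 1 infection response gene, irg-7, which was lower. At the low dose 1 other bZIP and 1 cold death pathway gene were called, and between doses 11 other bZIP and 5 fos-1 partner genes. Over all genes this setting gave 3839, 533 and 3334 calls at the high dose, at the low dose and between doses. With no gene left out these were 3418, 266 and 2880. The trend gave 4 mitochondrial response genes at the high dose, 4 infection response and 1 cold death pathway genes at the low dose, and 5 infection response and 5 fos-1 partner genes between doses. Over all genes it gave 4225, 545 and 3660 calls in these comparisons. Leaving out the dimmest 25% gave 4 mitochondrial response genes at the high dose, quantile normalization gave 5 infection response genes between doses, and fitting only the groups compared gave 1 infection response gene at the low dose. Calls over all genes in these 3 cases were 3942, 3061 and 139. With 1 array left out, calls at the high dose, at the low dose and between doses were 6 to 9, 0 to 0 and 4 to 7 for other bZIP genes, 3 to 4, 1 to 3 and 2 to 4 for infection response genes, 0 to 1, 0 to 0 and 0 to 0 for the cold death pathway, 1 to 3, 0 to 0 and 1 to 2 for the mitochondrial response, 3 to 5, 0 to 0 and 3 to 4 for fos-1 partners, and 3 to 4, 0 to 0 and 1 to 3 for the DLK-1 pathway.

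Replicate numbers are shared between groups, but the samples share only a number. Deviations of same-numbered arrays correlated at -0.03 to 0.03 over 9 pairs and those of other pairs at -0.05 to 0.04 over 18. With the number as a replicate block, 5, 0 and 4 listed genes were called, since fos-1 between doses (0.92, limma adjusted p = 0.0518) was lost. The block gave 0 cold death pathway genes at the high dose, 1 infection response gene at the low dose and 1 mitochondrial response gene between doses. All genes called at the low dose numbered 266, and 160 with the block, 139 with only the groups compared, 533 with the dimmer 50% left out and 545 with the trend. The dim signals of cebp-1 and zip-8 limit what their arrays can show.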

Other observations

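The bZIP gene maf-1 had probesets that differed. Its brighter probeset showed a high dose difference of 0.07 (SE 0.19), whereas its dim probeset rose by 3.20 (SE 0.60, limma adjusted p = 0.00877), from 4.64 in control to 7.84 at the high dose. This gene was singled out after its values were seen.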
